A study of Homo sapiens with 9 samples.

Results

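Heat shock factor 1 (*HSF1*) and 9 genes that encode chaperones or chaperone partners were followed across the 3 conditions of the series. They were taken by their symbols from the gene table, in which each of the 10 (*HSF1*, *HSPA1A*, *HSPA1B*, *HSPA8*, *HSPH1*, *DNAJB1*, *HSPB1*, *HSP90AA1*, *HSPD1* and *BAG3*) is 1 of 59452 entries. All 10 passed the filter on low counts that left 15528 genes for testing. MDA-MB-453 is an established breast cancer cell line, unmodified here, and was grown for 48 hours in 3 ways with 3 biological replicates each. Attached cells with vehicle (DMSO) stood on ordinary culture plastic, and suspended cells with vehicle were kept from attaching by a poly-HEMA coat. Suspended cells with AT-0174 received 10 µmol/L of this inhibitor of TDO2 and IDO1, the enzymes that open the tryptophan ring. For bulk RNA sequencing, the paper states this dose and DMSO for its BT549 cells and names neither for MDA-MB-453. Attached cells with AT-0174 were not analysed here, so the inhibitor can be compared with vehicle only in suspension, and everything below rests on 1 cell line.

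HSF1 is the main transcription factor of the cytosolic heat shock response. In unstressed cells much of it is held inactive by chaperones. When unfolded proteins draw those chaperones away, HSF1 forms trimers, binds heat shock elements (inverted repeats of nGAAn) and drives genes such as *HSPA1A*, *HSPA1B*, *DNAJB1* and *HSPH1*. Its activation is mostly post-translational, so the *HSF1* mRNA level is no measure of it. Tumor cells often carry high chaperone levels without heat.

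In suspension, *HSPB1* was 34% higher and *HSPD1* 9.78% higher than in attached cells. *HSPA1B* fell by 13%, *HSPA1A* fell by 9.96% and *BAG3* fell by 7.17%. *HSF1*, *HSPA8*, *HSPH1*, *DNAJB1* and *HSP90AA1* did not pass the test. With AT-0174, none of the 10 passed in edgeR, and *BAG3* and *HSPB1* had the largest differences, 10.2% and 7.65% higher.

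The promoter sequences of 4 members are shown because these genes stand for the different outcomes under suspension: *HSPB1* was higher, the near-identical copies *HSPA1A* and *HSPA1B* were lower, and *HSPA8*, the only one of the 4 with matches to 3 repeats of the element, did not pass. Each is the 250 bases before the start site in RefSeq (GRCh38.p14), on the strand of the gene. Capitals mark matches to GAANNTTC or TTCNNGAA (facing repeats, each of which reads the same motif on the other strand) or to GAANNTTCNNGAA or TTCNNGAANNTTC (3 repeats, which contain the shorter motifs).
HSPB1, chr7:76302423-76302672, plus strand: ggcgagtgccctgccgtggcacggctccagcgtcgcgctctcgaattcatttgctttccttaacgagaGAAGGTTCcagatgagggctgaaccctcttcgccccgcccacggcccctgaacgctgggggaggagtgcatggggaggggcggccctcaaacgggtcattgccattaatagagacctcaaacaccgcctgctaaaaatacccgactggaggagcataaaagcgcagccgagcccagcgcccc
HSPA1A, chr6:31815293-31815542, plus strand: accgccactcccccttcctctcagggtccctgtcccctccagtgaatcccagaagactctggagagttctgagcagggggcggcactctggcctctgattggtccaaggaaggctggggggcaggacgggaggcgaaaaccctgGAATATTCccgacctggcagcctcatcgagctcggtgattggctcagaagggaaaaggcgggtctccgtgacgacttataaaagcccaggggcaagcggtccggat
HSPA1B, chr6:31827488-31827737, plus strand: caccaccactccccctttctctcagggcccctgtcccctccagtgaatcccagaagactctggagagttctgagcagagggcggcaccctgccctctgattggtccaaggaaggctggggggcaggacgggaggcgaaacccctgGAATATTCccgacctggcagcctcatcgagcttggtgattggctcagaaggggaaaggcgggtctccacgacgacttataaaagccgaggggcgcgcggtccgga
HSPA8, chr11:123062137-123062386, minus strand: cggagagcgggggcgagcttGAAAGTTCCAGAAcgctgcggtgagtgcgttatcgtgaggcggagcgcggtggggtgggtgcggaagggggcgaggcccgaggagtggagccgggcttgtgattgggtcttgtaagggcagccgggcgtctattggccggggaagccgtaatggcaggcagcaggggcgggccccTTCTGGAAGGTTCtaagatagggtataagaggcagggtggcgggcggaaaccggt

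The RefSeq table held 13 windows, from 250 bases before to 50 after a start site, for 9 of the 10 members, and *HSF1* had no entry. The 3-repeat motif occurred in 0.49% of all 35116 windows and in 3 of the 13 windows of members, from *HSPA8*, *HSP90AA1* and *HSPD1*. *HSPA8* held it 2 times, at positions −230 to −218 and −55 to −43 from the start site. The shorter motif occurred in 13.5% of all windows and in 8 of the 13 windows of members. These came from 7 members, all with an entry except *HSPH1* and *BAG3*. In *HSPA1A* it lay at −106 to −99 and in *HSPB1* at −182 to −175. A match describes letters only, and a missing match says nothing about binding of HSF1. Members with a 3-repeat match included one that rose in suspension (*HSPD1*) and a pair that did not pass (*HSPA8* and *HSP90AA1*).

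Libraries held between 36649997 and 48019126 estimated counts, which had been assigned to transcripts with Salmon by the authors and are not corrected for depth or length. Counts per 1000000 (CPM) below use library sizes scaled by edgeR's TMM method, and adjusted p-values are Benjamini–Hochberg values over all 15528 genes from edgeR's quasi-likelihood test, with 0.05 as threshold. Transcripts of the mitochondrial genome took 7.56% to 9.32% of the counts in attached libraries, 4.05% to 4.34% in suspended libraries with vehicle and 3.73% to 5.51% with AT-0174. Of the markers of a luminal or apocrine breast cell, *KRT8* averaged 884 to 910 CPM over the conditions and *ERBB2* 1051 to 1062 CPM. The labels call the line triple-negative, and *ESR1* (at most 0.0910 CPM in any library) and *PGR* (at most 0.438 CPM) were near 0 whereas *ERBB2* was not. Of the basal genes *TP63* averaged 5.55 to 5.77 CPM, while *KRT5* and *KRT14* were below 0.1 CPM. The 4 leukocyte genes and the endothelial genes *PECAM1*, *VWF* and *CDH5* averaged below 0.2 CPM. Of the fibroblast genes *COL1A1* averaged 110 to 137 CPM, while *COL1A2*, *COL3A1* and *PDGFRB* averaged below 0.2 CPM.

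Levels of different genes were compared in transcripts per 1000000 (TPM), which are corrected for transcript length. In attached cells *HSPA8*, the constitutive cytosolic HSP70, led with 1562 ± 83.3 TPM (SD, n = 3). *HSP90AA1*, the inducible form of cytosolic HSP90, followed with 958 TPM and *HSPD1*, the mitochondrial chaperonin HSP60, with 568 TPM. These 3 genes gave 78.1% of the summed TPM of the 10 members.

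The heat-inducible HSP70 genes and their partners were lower. *HSPA1A* reached 248 TPM, *HSPB1* 147, *HSPH1* 122 and *HSPA1B* 110. *DNAJB1* (94.0 TPM) and *HSF1* (93.8 TPM) overlapped in attached cells, and *BAG3* was lowest with 53.2 TPM. In suspended cells with vehicle the order was the same except that *HSF1* stood above *DNAJB1*, and the neighbours *HSPA1B* and *HSF1* and *HSF1* and *DNAJB1* overlapped. With AT-0174 these neighbours overlapped too, as did *HSPA1A* (238 TPM) and *HSPB1* (220 TPM).

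**Figure D1:**
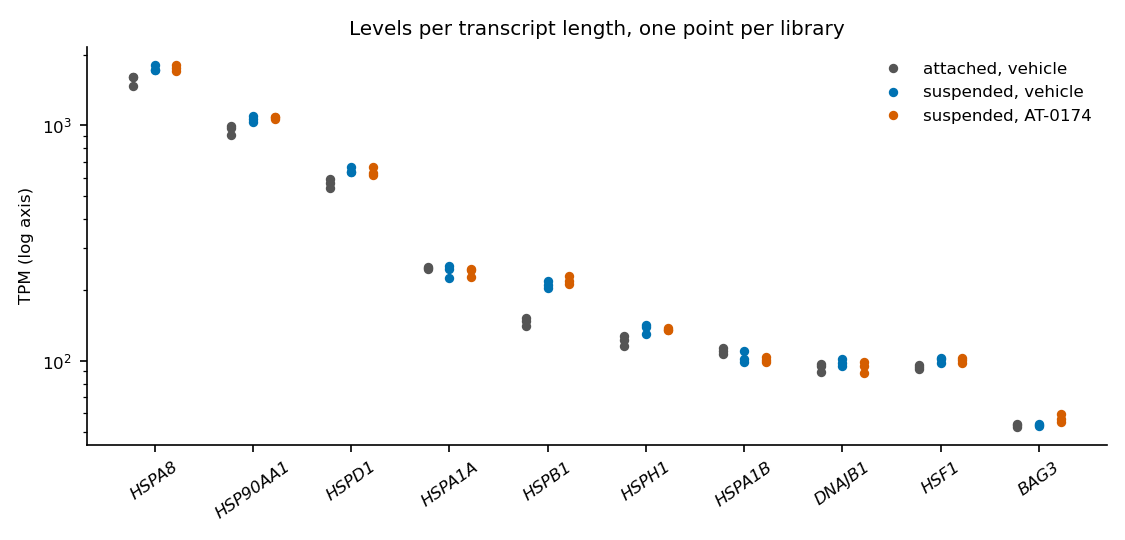
TPM of the 10 members on a log axis, one point per library and one colour per condition, ordered by the attached mean. *HSPA8*, *HSP90AA1* and *HSPD1* lie above 500 TPM in every library and *BAG3* lies lowest.

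Summed over the 10 members, TPM was 3956 ± 170 in attached cells, 4398 ± 86.3 in suspended cells with vehicle and 4418 ± 108 with AT-0174 (SD, n = 3 each), or 0.396%, 0.440% and 0.442% of all TPM. TPM are shares of a total that holds the mitochondrial transcripts, whose share was larger in attached libraries, and the part of this in the difference of the sums was not tested. Differences between conditions are therefore given on the TMM-scaled counts. On that scale the median coefficient of variation of the 10 members was 3.31%, 2.48% and 1.23% in the 3 conditions, against 5.56%, 5.13% and 5.11% for all tested genes.

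Suspended and attached cells, both with vehicle, were compared to ask whether loss of attachment came with a change of chaperone transcripts. Of the 10 members 5 passed, 2 higher and 3 lower, against 21.2% of all tested genes (10.4% higher and 10.8% lower). The same 5 were those whose suspended libraries did not overlap the attached ones, against 19.4% of all tested genes that lay higher without overlap and 18.7% that lay lower. The median log2 fold change of the members was 0.010 and that of all tested genes −0.00025, so the members did not move one way. The members' count fell to 2 without attached replicate 3, to 3 without attached replicate 1 or suspended replicate 2, and to 2 with counts rebuilt from TPM. The shares of all tested genes called in such refits, here and below, are not given. Whether calls fell more for these genes than for all genes therefore cannot be read from the counts. In these bulk samples fewer expressing cells and less RNA per cell cannot be told apart.

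*HSF1* itself did not pass. It measured 115, 116 and 124 CPM in the attached libraries, 117, 116 and 116 CPM in suspended libraries with vehicle and 119, 121 and 122 CPM with AT-0174. The suspended vehicle libraries lay within the range of the attached ones, and attached replicate 3 was the highest of all 9. The log2 fold change in suspension was −0.03 (SE 0.034, 95% interval −0.10 to 0.05, adjusted p = 0.609), and it was 0.01 without attached replicate 3. *HSF1* spans chr8:144291591-144314720 (GRCh38, GENCODE) on the plus strand and overlaps *DGAT1* on the other strand, whose counts came to 30.4% of those of *HSF1*. Whether strand was used in counting is not given in the sources used here.

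Within *HSF1*, the share of counts assigned to the retained-intron transcript HSF1-210, which is annotated as non-coding, was 12.6%, 11.7% and 16.6% in attached libraries. It was 7.07%, 7.76% and 8.92% in suspended libraries with vehicle, and all 3 lay below the attached ones. The coding transcript HSF1-204 took 64.2%, 64.8% and 62.8% in attached libraries and 68.6%, 69.9% and 70.4% in suspended ones, all higher. The differences of −5.71 and 5.72 percentage points both had an exact two-sided permutation p of 0.1, the smallest that 3 against 3 libraries can give, and the adjusted p over 26 transcript shares was 0.52. Of the 13 shares compared in suspension, 5 did not overlap. The other 3 were the main transcripts of *HSPD1* (80.4% and 83.0% in attached and suspended cells), *HSPA8* (86.2% and 87.8%) and *HSP90AA1* (98.2% and 98.9%), all higher with the same p. Transcripts of other genes were not compared in this way, so the count of 5 has no background beside it. HSF1-204 and HSF1-210 are shares of the same total, so their differences are not independent. With AT-0174 the share of HSF1-210 was 6.84%, 10.8% and 7.64%, and it overlapped that of the vehicle libraries. Shares of transcripts are Salmon estimates, and the *HSF1* level above counts all its transcripts.

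**Figure D2:**
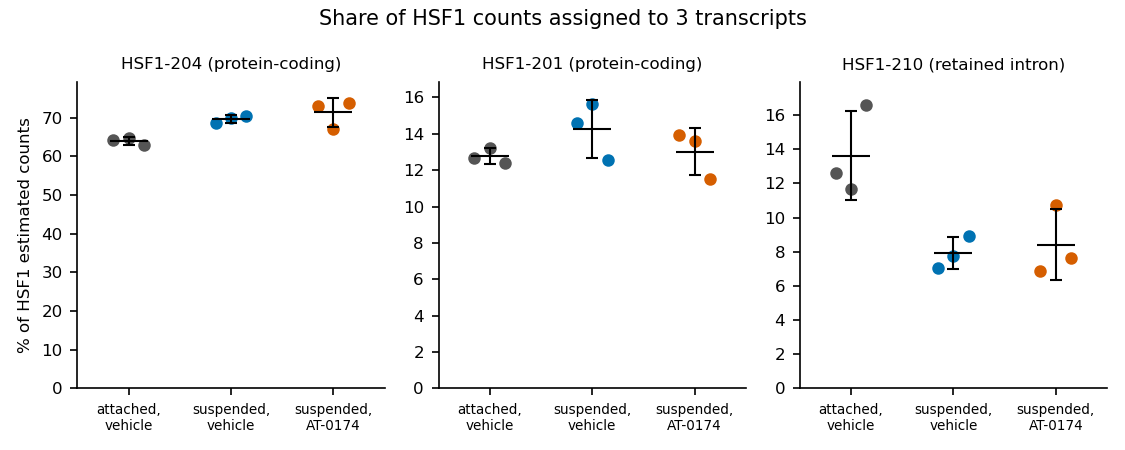
Percent of the *HSF1* estimated counts assigned to the coding transcripts HSF1-204 and HSF1-201 and to the retained-intron transcript HSF1-210, one point per library, with mean and SD (bars). HSF1-210 lies between 11.7% and 16.6% in attached libraries and below 9% in suspended libraries with vehicle.

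*HSPA1A* and *HSPA1B* encode the stress-inducible HSP70 and lie next to each other, at chr6:31815543-31817946 and chr6:31827738-31830254. *HSPA1A* measured 399, 396 and 410 CPM in attached libraries, 377, 334 and 374 CPM in suspended libraries with vehicle and 369, 359 and 375 CPM with AT-0174. *HSPA1B* measured 192, 182 and 193 CPM, 164, 155 and 173 CPM, and 167, 166 and 164 CPM. For both copies every suspended library was below every attached one, and suspended vehicle replicate 2 was the lowest of all 9.

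The log2 fold change in suspension was −0.15 for *HSPA1A* (SE 0.043, adjusted p = 0.0252) and −0.20 for *HSPA1B* (SE 0.040, adjusted p = 0.00495). The *HSPA1A* call was lost without attached replicate 1 (adjusted p = 0.0555), attached replicate 3 (0.084) or suspended replicate 2 (0.0904) and with counts rebuilt from TPM (0.0796), whereas the *HSPA1B* call held in each of these fits. The copies share reads: of the 150-base windows of the *HSPA1A* transcript, 69.6% occur unchanged in that of *HSPA1B*, so the split between them is uncertain. Their sum, which does not depend on the split, measured 591, 577 and 603 CPM in attached libraries and 541, 489 and 547 CPM in suspended ones. It had a log2 fold change of −0.17 (SE 0.040, adjusted p = 0.0123). *HSPA1A* held 69.3% ± 0.5, 70.0% ± 0.719 and 70.2% ± 0.596 of the TPM of both copies in the 3 conditions (SD, n = 3). The printed promoters of the copies are also alike, with 235 aligned bases identical and 14 mismatched. A long non-coding RNA on the same strand overlaps *HSPA1B*, and its counts came to 13.6% of those of *HSPA1B*.

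*HSPA8*, at chr11:123057489-123063230, encodes the HSP70 that folds new proteins in unstressed cells. It measured 2251, 2277 and 2106 CPM in attached libraries, 2433, 2273 and 2283 CPM in suspended libraries with vehicle and 2431, 2375 and 2403 CPM with AT-0174. Attached and suspended vehicle libraries overlapped, and the log2 fold change was 0.08 (SE 0.037, 95% interval −0.01 to 0.16, adjusted p = 0.173). Per 100 TPM of *HSPA8*, the 2 inducible copies together had 23.0 ± 1.34 TPM in attached cells, 19.7 ± 1.12 in suspended cells with vehicle and 19.4 ± 0.243 with AT-0174 (SD, n = 3). The attached range, 21.9 to 24.5, did not meet the suspended vehicle range, 18.9 to 21.0, and this ratio was given no test. It is formed from genes already compared above, so it is no further evidence, and it has no background beside it.

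The HSP70 cofactors *DNAJB1* and *HSPH1* did not pass in suspension. *DNAJB1*, a J-domain protein that starts the HSP70 cycle, ranged from 133 to 145 CPM in attached and from 133 to 138 CPM in suspended libraries with vehicle (log2 fold change −0.04, SE 0.039, adjusted p = 0.519). It overlaps *TECR* on the other strand, whose counts came to 114% of its own. *HSPH1*, an HSP110 that exchanges nucleotide on HSP70, ranged from 279 to 292 CPM and from 291 to 302 CPM (log2 fold change 0.05, SE 0.030, adjusted p = 0.279). The transcript HSPH1-206, annotated in GENCODE as a target of nonsense-mediated decay, took 54.0% and 53.0% of the *HSPH1* counts in these conditions.

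*BAG3*, at chr10:119651380-119677819, encodes a cofactor that links HSP70 and small heat shock proteins to selective autophagy. It measured 87.1, 88.2 and 88.7 CPM in attached libraries and 82.6, 82.2 and 80.2 CPM in suspended libraries with vehicle. All suspended libraries were lower, and the log2 fold change was −0.11 (SE 0.033, adjusted p = 0.0353). The call was the least secure of the 5, since it was lost on leaving out any 1 of the 6 libraries (adjusted p = 0.0558 to 0.12), without a filter on low counts (0.115) and with counts rebuilt from TPM (0.149).

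*HSP90AA1*, at chr14:102080742-102139699, ranged from 2013 to 2152 CPM in attached and from 2080 to 2276 CPM in suspended libraries with vehicle. The groups overlapped (log2 fold change 0.05, SE 0.037, 95% interval −0.03 to 0.13, adjusted p = 0.358). It overlaps *WDR20* on the other strand, whose counts came to 2.4% of its own.

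*HSPB1*, at chr7:76302673-76304295, encodes HSP27, a small heat shock protein that holds unfolded proteins and binds actin. It measured 67.8, 68.8 and 66.5 CPM in attached libraries, 90.1, 89.8 and 92.2 CPM in suspended libraries with vehicle and 99.9, 96.6 and 96.3 CPM with AT-0174. The 3 conditions did not overlap. The log2 fold change in suspension was 0.42 (SE 0.032, 95% interval 0.35 to 0.49, adjusted p = 6.02e-06), rank 33 by p among all tested genes, and it stayed between 0.41 and 0.43 with each library left out. No other member had a larger difference in either direction.

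*HSPD1*, at chr2:197486584-197516737, measured 652, 637 and 605 CPM in attached libraries and 712, 690 and 676 CPM in suspended libraries with vehicle. All suspended libraries were higher (log2 fold change 0.13, SE 0.034, adjusted p = 0.0144). The adjusted p was 0.0503 without attached replicate 3, the lowest library, and 0.214 with counts rebuilt from TPM. *HSPE1*, which encodes the HSP10 lid of the same mitochondrial chamber and is read from a shared promoter region on the other strand, averaged 122 ± 5.37 CPM attached and 127 ± 4.66 CPM suspended (SD, n = 3) and did not pass (log2 fold change 0.05, SE 0.041, adjusted p = 0.404). Its counts came to 18.4% of those of *HSPD1*. It was named for this partnership after its values were seen.

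**Figure D3:**
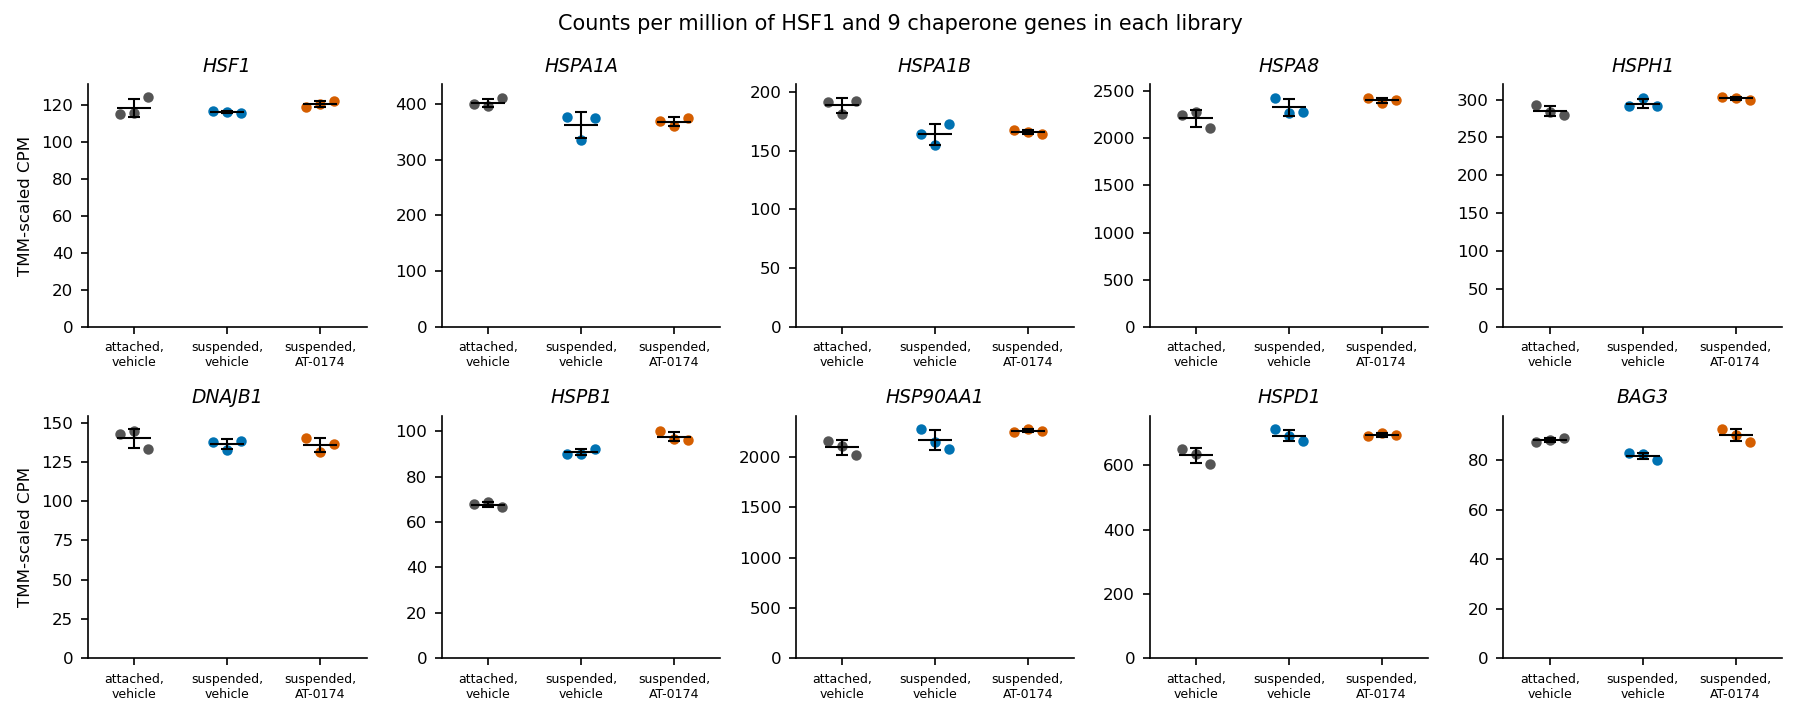
TMM-scaled CPM of each member, one point per library with replicates 1 to 3 from left to right, and mean with SD (bars); every axis starts at 0. The points of *HSPB1* do not overlap between the 3 conditions, although its difference between AT-0174 and vehicle did not pass the test. *HSPA1A* and *HSPA1B* lie highest in attached cells.

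AT-0174 and vehicle were compared in suspended cells to ask whether the inhibitor changed chaperone transcripts there. edgeR called 0 of the 10 members, against 0.779% of all tested genes (0.522% higher and 0.258% lower). At an unadjusted p under 0.05, 2 members passed (*BAG3* and *HSPB1*), against 9.02% of all genes. DESeq2 called 1 member (*BAG3*, adjusted p = 0.0457) and limma-voom 0. The shares of all genes called by DESeq2 and limma-voom are not given, so these counts have no background beside them. The median log2 fold change of the members was 0.04 and that of all genes 0.0013.

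*BAG3* measured 92.3, 90.2 and 87.3 CPM with AT-0174, and all 3 libraries were above the suspended vehicle libraries given before. The log2 fold change was 0.14 (SE 0.033, 95% interval 0.07 to 0.21), with an edgeR unadjusted p of 0.000966 and an adjusted p of 0.0875. It ranged from 0.12 to 0.155 with each library left out. Without a filter on low counts the adjusted p was 0.0436, the lowest of the 16 alternatives, and the highest was 0.327. Against attached cells with vehicle, *BAG3* with AT-0174 had a log2 fold change of 0.03 (SE 0.033, 95% interval −0.04 to 0.10, adjusted p = 0.516), and the libraries overlapped.

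*HSPB1* was also higher in every AT-0174 library (log2 fold change 0.11, SE 0.032, 95% interval 0.04 to 0.17), but its adjusted p was 0.221. *HSF1* was the third member without overlap, with a log2 fold change of 0.05 (SE 0.034, 95% interval −0.02 to 0.13, adjusted p = 0.699). Groups did not overlap, with AT-0174 higher, for these 3 of 10 members and for 7.75% of all tested genes. They did not overlap with AT-0174 lower for 0 members and 7.66% of all genes. The estimates of the other 7 members lay between −0.003 (*DNAJB1*) and 0.06 (*HSP90AA1*). Their 95% intervals reached from −0.09 (*DNAJB1*) to 0.14 (*HSP90AA1*), and differences within these intervals cannot be told from none with 3 libraries a group. The sum of *HSPA1A* and *HSPA1B* was 536, 525 and 539 CPM with AT-0174, and its log2 fold change was 0.02 (SE 0.040, adjusted p = 0.936).

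The third contrast sets suspended cells with AT-0174 against attached cells with vehicle. Suspension and inhibitor both differ there and cannot be told apart, and it shares libraries with the contrasts above, so its calls are no further evidence for them. In it 6 members passed, 4 higher and 2 lower, against 24.0% of all tested genes (12.2% higher and 11.8% lower). Without overlap, 5 members lay higher (*HSPH1* also, adjusted p = 0.0661) and 2 lower, against 20.4% and 19.1% of all genes. *HSPB1* had a log2 fold change of 0.53 (adjusted p = 5.80e-07), *HSPD1* 0.14 (0.00998), *HSPA8* 0.12 (0.0328) and *HSP90AA1* 0.11 (0.0456). *HSPA1A* had −0.13 (0.0463) and *HSPA1B* −0.19 (0.00574). Leaving out any 1 of the 6 libraries left 3 or 4 calls, and counts rebuilt from TPM left 2. *HSPA8* and *HSP90AA1* passed here and not in the suspended vehicle contrast, but neither passed in the direct comparison of AT-0174 with vehicle (adjusted p = 0.797 and 0.696).

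**Figure D4:**
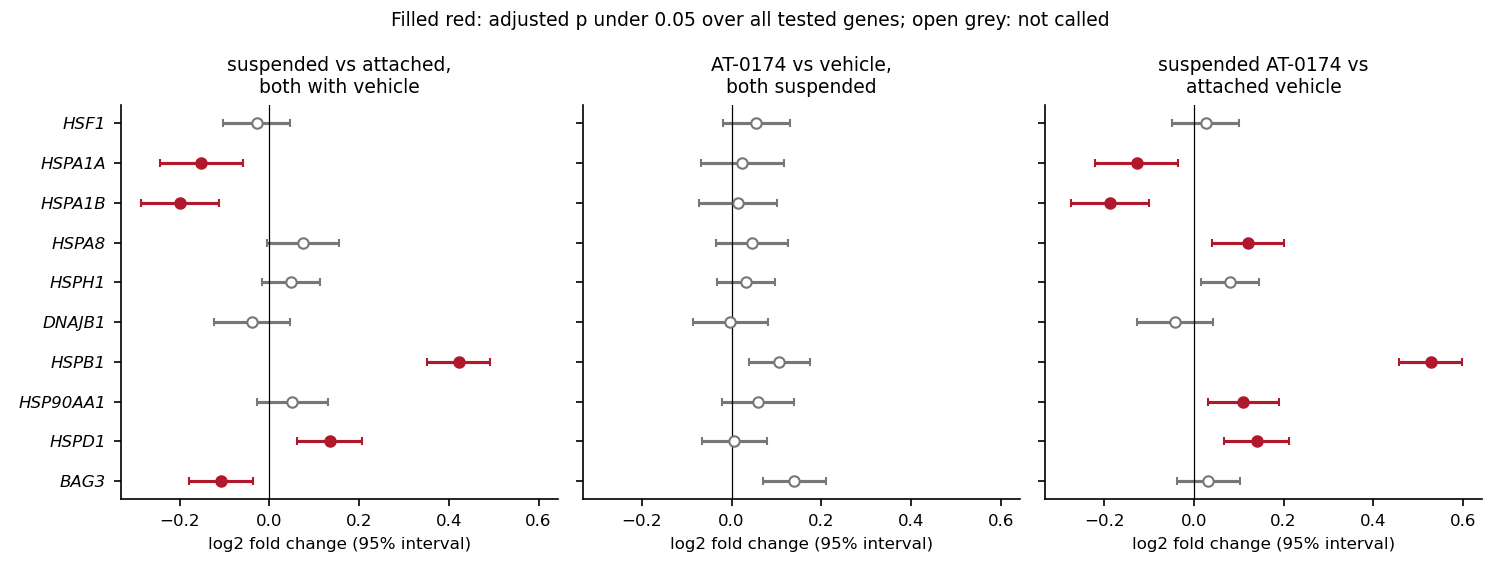
Log2 fold change of each member with its 95% interval in the 3 contrasts; filled red points passed the test over all genes (adjusted p under 0.05) and open grey points did not. The estimate of *HSPB1* lies farthest from 0 in both contrasts with attached cells, and no point is filled for AT-0174 against vehicle.

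The rest of the chaperone network was described by 9 lists with 118 genes, of which 109 were tested. In suspended against attached cells with vehicle 28 of the 109 passed (25.7%, against 21.2% of all tested genes), 21 higher and 7 lower. The count was 14 with counts rebuilt from TPM, 14 without attached replicate 3, 16 without suspended replicate 3, 17 without suspended replicate 2 and 20 without any other single library of these groups. The shares of all tested genes in these refits are not given. With AT-0174 edgeR called 0 of the 109, against 0.779% of all tested genes. DESeq2 called 1 of them, and its share over all genes is not given. At an unadjusted edgeR p under 0.05, 7 of the 109 passed with AT-0174, 4 of them higher, against 9.02% of all tested genes.

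The largest group that rose in suspension was the cytosolic chaperonin TRiC, which folds actin and tubulin, listed with its feeder prefoldin. Of 15 tested genes 9 were higher and 0 lower, against 10.4% higher and 10.8% lower of all tested genes. The median log2 fold change of the list was 0.11. All 8 genes of the TRiC ring on the list (*TCP1*, *CCT2*, *CCT3*, *CCT4*, *CCT5*, *CCT6A*, *CCT7* and *CCT8*) were among the 9, together with *VBP1* of prefoldin, and beyond *CCT4*, *VBP1* and *CCT3* they are named after their values were seen. *CCT4* rose from 214 ± 10.2 to 249 ± 1.22 CPM (SD, n = 3, log2 fold change 0.22, adjusted p = 0.0028), *VBP1* by 0.24 (0.00354) and *CCT3* by 0.15 (0.00495).

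These 3 calls held with each library left out. The other 6 ring genes each lost their call without 3 to 5 of the 6 libraries of the comparison, attached replicate 3 always among them. The list's count was 3 without attached replicate 3, 5 without any 1 suspended library, 7 without attached replicate 1 or 2 and 4 with counts rebuilt from TPM. The shares of all tested genes in these refits are not given. With AT-0174 the 15 genes lay between −0.05 and 0.10, with a median of −0.0076 and none called by edgeR.

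Among regulators of HSF1 and the other heat shock factors, 1 of 8 tested genes was higher and 3 were lower. The shares of all tested genes were 10.4% higher and 10.8% lower. *FBXW7*, a ubiquitin ligase subunit that marks HSF1 for degradation, fell by 0.21 on the log2 scale (adjusted p = 0.00252), and *HDAC6*, a cytosolic deacetylase that binds ubiquitin and HSP90, by 0.20 (0.00473). *HSBP1*, which binds HSF1 trimers, rose by 0.14 (0.0136). These 3 calls held with each library left out. *HSF4*, the fourth to pass, was named after its values were seen and averaged 29.1 ± 3.34 CPM attached and 19.2 ± 2.33 CPM suspended (SD, n = 3, log2 fold change −0.60, adjusted p = 0.0187). Its call was lost without attached replicate 3 or suspended replicate 1 or 3.

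HSP90 and its co-chaperones had 4 genes higher and 2 lower of 17, against 10.4% higher and 10.8% lower of all tested genes. *FKBP4*, an immunophilin of steroid receptor complexes, rose by 0.16 (adjusted p = 0.0023). *CHORDC1*, an HSP90 partner, fell by 0.24 (0.00373). Both calls held with each library left out and were lost with counts rebuilt from TPM. *SUGT1*, an adaptor of HSP90, rose by 0.17 (0.0257), a call lost without attached replicate 1 or 2 or suspended replicate 1 or 2. *PTGES3* and *PPP5C* (higher) and *CDC37* (lower) are named after their values were seen. The first and the last lost their calls without attached replicate 2 or 3 or suspended replicate 2 or 3, and *PPP5C* without any library except suspended replicate 1. *HSP90AB1*, the constitutive partner of *HSP90AA1*, was likewise named later and did not pass (log2 fold change 0.07, SE 0.039, adjusted p = 0.228).

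In the lists named in this paragraph 4.17% to 12.5% of the tested genes passed, against 21.2% of all tested genes. These shares rest on 1 or 2 calls a list, and their difference from that of all genes was not tested. Among J-domain proteins 1 of 24 passed. Among other HSP70 and HSP110 chaperones 1 of 8 passed, *HSPA4L* (log2 fold change 0.19, adjusted p = 0.0128, lost only with counts rebuilt from TPM), and among exchange factors 1 of 8, *HSPBP1* (0.15, 0.0403), whose call was lost without 5 of the 6 libraries, all but suspended replicate 1. Of the mitochondrial chaperones and proteases 2 of 17 passed, *DNAJA3* (0.11, 0.027) and *TRAP1* (0.11, 0.0373), both higher, and they lost their calls without any library except attached replicate 3 and suspended replicate 2 for *DNAJA3*, and attached replicate 2 for *TRAP1*.

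Of the 9 other small heat shock protein genes only 2 were expressed enough to be tested. *HSPB11* fell from 33.2 ± 0.665 to 17.9 ± 0.794 CPM (SD, n = 3, log2 fold change −0.89, adjusted p = 3.78e-07), the opposite direction to *HSPB1*. Despite its name it encodes a subunit of the intraflagellar transport complex (IFT25). *CRYAB* and *HSPB8*, whose proteins are known to bind BAG3, averaged below 0.03 CPM in each condition and, like *HSPA6* below, are named after their values were seen. Among other heat-induced genes 2 of 10 were higher and 1 was lower, against 10.4% higher and 10.8% lower of all tested genes. *CLU*, an extracellular chaperone, fell by 0.52 on the log2 scale (adjusted p = 9.26e-06), and *UBB*, a ubiquitin gene, rose by 0.12 (0.0459), a call lost without any library except suspended replicate 2. *HSPA6*, a strictly heat-inducible HSP70, averaged 0.318 ± 0.0955, 0.520 ± 0.155 and 0.435 ± 0.112 CPM in attached, suspended vehicle and suspended AT-0174 libraries (SD, n = 3), with 8 to 27 counts a library. Its log2 fold change in suspension, 0.70, was the highest of the 109 genes but did not pass (SE 0.36, 95% interval −0.09 to 1.48, adjusted p = 0.194), although all 3 suspended vehicle libraries were above the attached ones.

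**Figure D5:**
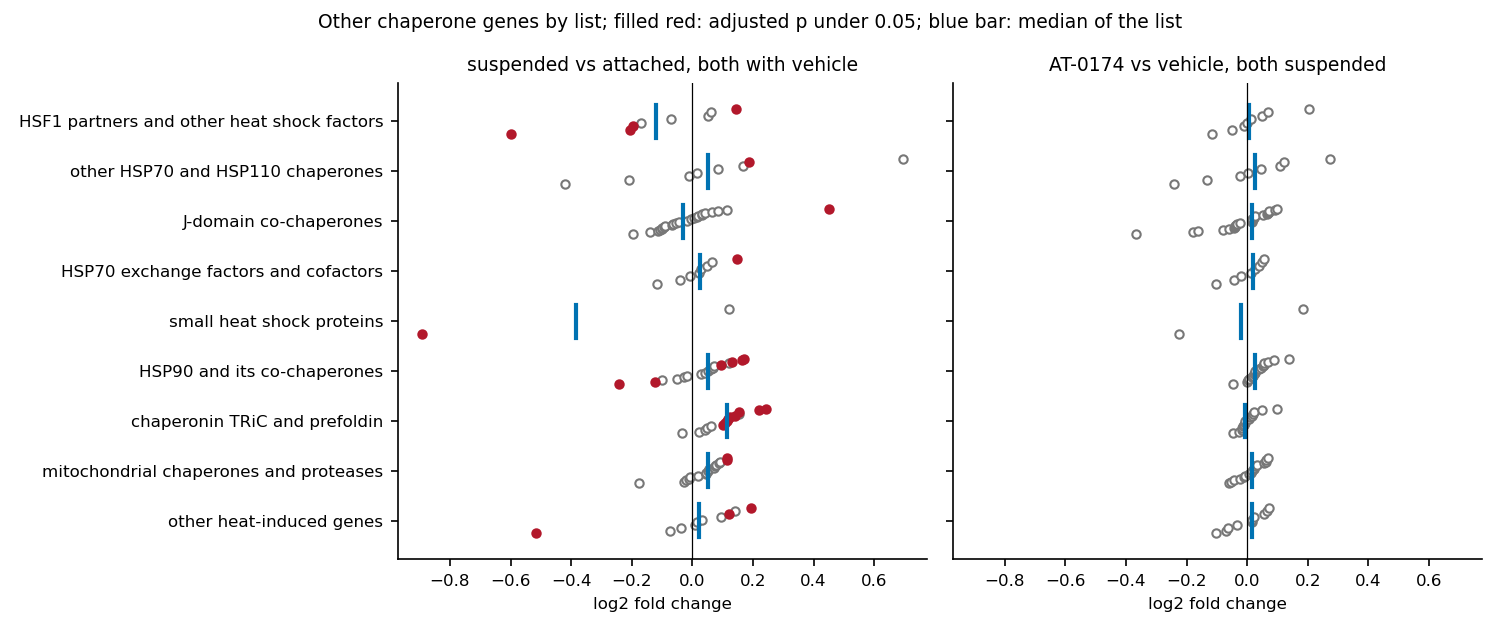
Log2 fold change of the 109 other chaperone genes by list, in suspension (left) and with AT-0174 (right); filled red points passed the test over all genes, and blue bars mark list medians. The list of TRiC and prefoldin genes holds 9 of the filled points in suspension, and no point is filled with AT-0174.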

How the data were processed

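The 9 libraries of MDA-MB-453 cells, 3 per condition, were analysed. According to the paper and the sample descriptions, reads were trimmed with Trim Galore 0.6.7 and Cutadapt 3.4, aligned to GRCh38 with STAR 2.7.9a, quantified with Salmon 1.10.1 and summed by gene with tximport. The paper and the descriptions name different library kits. The deposited estimated counts carry no normalization and equal the sums of the transcript values. The deposited TPM come from Salmon, as run by the authors, and rest on effective transcript lengths.

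Estimated counts were rounded, filtered (filterByExpr), scaled (TMM) and fitted together in edgeR 4.0.16 under R 4.3.3, without covariates. The paper used limma, and limma 3.58.1 (voom) was an alternative. Each standard error was obtained by dividing the log2 fold change by the root of its F statistic. The members and lists were chosen with earlier results of these data known. All members are named, and of each list the up to 3 called genes with the smallest p, with exceptions stated. A few genes are not reported here. Transcripts with at least 10% of their gene's counts were compared by exact permutation tests. The fit was tested on simulated data. No libraries were duplicates, since replicate pairs differed by 3.1 to 17.8 times sampling noise (chi-square per degree of freedom). Alternatives were DESeq2 1.42.0 and its size factors, limma-voom, other filters, 6 libraries only, a replicate block, counts rebuilt from TPM, summed *HSPA1* copies and each library left out. TMM without mitochondrial transcripts was added after seeing the data. Gene positions are from GENCODE on GRCh38. Motifs were searched with Python 3.11.15. Depth, at 36649997 to 48019126 counts, sets counting error only, and 3 libraries a group limit the precision.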

Additional observations from a re-analysis of the deposited data

How the results depend on the processing

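The 5 members called in suspension numbered 2 with counts rebuilt from TPM and 2 to 4 with each library left out, and 4 or 5 otherwise. The 28 other chaperone genes numbered 14 from TPM and 14 to 20 with a library left out. With only the 6 libraries of the contrast, 14 were called higher and 7 lower. In that fit 6 genes of the TRiC and prefoldin list were higher, and of the mitochondrial list 0 were higher and 1 was lower. With AT-0174, the 0 members called became 1 (*BAG3*) in DESeq2 and without a filter, and remained 0 with each library left out. The 0 other chaperone genes became 1 in DESeq2, 2 without a filter, 1 with at least 10 counts in every library and 1 with the replicate block. The 6 members called between suspended AT-0174 and attached vehicle cells numbered 2 from TPM and 3 to 4 with a library left out. *HSPB1* and *HSPA1B* kept their calls in suspension under every alternative that gave a value. The shares of all tested genes called under these alternatives are not given, so changes in the counts cannot be set against those of all genes.

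The values gave no sign that the replicate numbers pair the libraries. Same-numbered libraries correlated between −0.0653 and 0.0467 in their deviations, and differently numbered ones between −0.0749 and 0.0848. How the replicates were made cannot be read from these values. With the replicate block 5 members were still called in suspension and 0 with AT-0174, and 24 other chaperone genes in suspension.

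Small differences changed sign without passing a threshold, and the cause was not tested. *HSF1* in suspension was 0.00562 from TPM and −0.047 to 0.00847 with a library left out. For AT-0174 with a library left out, *DNAJB1* lay between −0.0266 and 0.0213, *HSPD1* between −0.0149 and 0.0214, *HSPA1A* between −0.0345 and 0.0492 and *HSPA1B* between −0.0298 and 0.0513, and *DNAJB1* was 0.00246 without a filter. Omitting mitochondrial transcripts from TMM, chosen after seeing the data, left 5, 0 and 5 members called, and *HSP90AA1* lost its call in the third contrast (adjusted p = 0.0513).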
